A study of Mus musculus with 8 samples.

Results

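Glucose and lactate cross cell membranes through a pair of families of carrier proteins, and 5 of their genes, together with Txnip, an arrestin-like regulator of glucose uptake, were followed in brown fat lacking the histone demethylase Lsd1. The 6 genes were chosen by symbol from the deposited count table of 23372 genes, and where a symbol had several transcript rows (Slc16a3 with 3 and Txnip with 2) the row with the highest total stood for the gene. All 6 passed the filter on low counts. Brown fat, a heat-producing adipose tissue, came from 8 mice of strain background C57BL/6 N aged 10 weeks. The knockout group (n = 4, replicates 512, 513, 515 and 516) carried floxed Lsd1 and came from a cross to Ucp1-Cre mice, in which Cre recombinase is driven by a promoter of brown adipocytes. The control group (n = 4, replicates 511, 514, 517 and 518) was floxed for Lsd1. The groups differ in the Cre transgene as well as in Lsd1, so the effects of the transgene and of the deletion cannot be told apart, and other cell types of the tissue keep Lsd1. Zygosity of the alleles is not given in the sources used here.

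Glucose enters cells by facilitated diffusion through the Slc2a family (GLUT proteins). Slc2a4 (GLUT4) is the insulin-responsive transporter of fat and muscle, stored in vesicles that fuse with the surface on stimulation, while Slc2a1 (GLUT1) is widespread and Slc2a3 (GLUT3) is a high-affinity transporter best known from neurons and some blood cells. Lactate and pyruvate move with a proton through the Slc16a family: Slc16a1 (MCT1) works in uptake and release, and Slc16a3 (MCT4) is typical of cells that export lactate, such as fast-twitch muscle. Txnip binds thioredoxin and promotes removal of Slc2a1 and Slc2a4 from the cell surface, and its own gene is switched on by glucose through the transcription factors Mlxipl (ChREBP) and Mlxip (MondoA). In brown fat, cold and adrenergic stimulation are known to raise glucose uptake.

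Of the 6 genes, 4 had an entry among the RefSeq promoters of GRCm38.p6, which is the mm10 assembly: Slc2a1, Slc16a1, Slc16a3 and Txnip. They are shown so that Slc16a3 and Txnip, called higher in knockouts, can be set beside Slc16a1, called lower, as described below. Slc2a1 was not called. Each line holds the 250 bases before the annotated start site, 5′ to 3′. Capitals mark the E-box CACGTG, the imperfect E-box CACGAG, the box CCAAT of many promoters, the GC box with the letters GGGCGG, the TATA box TATAAA and its variant with the letters TATAAG. Each was searched on both strands.

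Txnip (chr3:96557707-96557956, plus strand): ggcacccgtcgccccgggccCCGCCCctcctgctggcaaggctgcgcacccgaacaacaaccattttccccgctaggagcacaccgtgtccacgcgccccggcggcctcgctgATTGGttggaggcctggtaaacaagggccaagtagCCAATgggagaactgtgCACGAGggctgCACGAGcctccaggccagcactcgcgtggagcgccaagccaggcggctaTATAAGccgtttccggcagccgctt
Slc2a1 (chr4:119108495-119108744, plus strand): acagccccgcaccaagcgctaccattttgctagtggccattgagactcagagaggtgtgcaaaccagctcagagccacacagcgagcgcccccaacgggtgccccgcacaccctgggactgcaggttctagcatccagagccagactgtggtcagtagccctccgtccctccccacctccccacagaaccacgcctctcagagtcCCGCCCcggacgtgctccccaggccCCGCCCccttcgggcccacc
Slc16a3 (chr11:120948817-120949066, plus strand): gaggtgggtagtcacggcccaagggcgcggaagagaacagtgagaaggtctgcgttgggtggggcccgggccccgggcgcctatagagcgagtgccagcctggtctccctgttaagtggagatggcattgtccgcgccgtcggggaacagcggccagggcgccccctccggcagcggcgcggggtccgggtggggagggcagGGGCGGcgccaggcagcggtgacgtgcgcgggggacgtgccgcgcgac
Slc16a1 (chr3:104638414-104638663, plus strand): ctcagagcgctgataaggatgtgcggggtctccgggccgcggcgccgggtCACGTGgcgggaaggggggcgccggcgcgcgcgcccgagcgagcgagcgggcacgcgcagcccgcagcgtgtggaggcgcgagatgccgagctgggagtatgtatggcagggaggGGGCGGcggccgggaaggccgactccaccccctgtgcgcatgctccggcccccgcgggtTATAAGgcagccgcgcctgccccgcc

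The Txnip window held CACGAG at 2 places starting 85 and 74 bases before the start, with 5 bases between the copies, an arrangement of imperfect E-boxes known as the carbohydrate response element of this gene. That spaced pair was searched for after the sequence was seen, and 1 of 32817 promoter windows of the same length held it. CACGAG alone was present in 5.36% of the windows. Txnip also held CCAAT at 2 places (33.8% of windows hold it) and TATAAG starting 25 bases before the start (6.66% of windows). Slc16a1 held the E-box CACGTG starting 200 bases before the start, which 6.02% of windows hold, and the TATA variant as well. The GC box was found in all 4 windows, at 2 places in Slc2a1 and 1 place in each of the others, and in 32.7% of all windows. ACGTG, the core of the hypoxia response element, was not given in capitals: it matched at 2 places in Slc16a3, 1 place in Slc2a1 and 2 places in Slc16a1, both inside the palindromic CACGTG, and 16.6% of all windows held it. A match describes these letters only.

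The groups were first checked on the targeted gene. Kdm1a, which encodes Lsd1, was at 13.1 ± 0.711 CPM (counts relative to library size, scaled by TMM factors) in knockouts and 35.4 ± 1.52 CPM in controls (SD, n = 4 each), with no overlap. Ucp1, the defining gene of brown adipocytes, was at 1377 ± 161 CPM in knockouts and 4481 ± 1200 CPM in controls, so the tissue label held in every library while the level differed (edgeR adjusted p = 0.000477). Of 10 brown adipocyte markers 0 were higher and 6 lower, and of 10 general adipocyte markers 0 were higher and 7 lower. Over all tested genes 15.4% were higher and 18.9% lower. Summed levels of the brown list were 5280 to 5856 CPM in knockouts and 8662 to 11888 CPM in controls. Libraries held 33011022 to 38756920 counts summed over all rows. Summed over 20 genes, markers of skeletal muscle were at 8115 to 17994 CPM in knockouts and 427 to 6926 CPM in controls, without overlap. Control 514 was lowest. The labels give each library as a separate sample without naming litters or batches, and the tests rest on that spread. In bulk tissue, fewer cells of a type and less RNA per cell cannot be told apart.

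The most abundant gene per length of each carrier family, Slc2a4 and Slc16a1, was lower without Lsd1, and a scarce relative in each was higher. Slc2a4 and Slc16a1 fell to 0.744 and 0.712 of their control level, Slc2a3 and Slc16a3 rose 2.22-fold and 2.32-fold, and Txnip rose 1.50-fold. Slc2a1 had an estimate of 1.48-fold higher that did not pass the threshold. By edgeR's quasi-likelihood test with Benjamini-Hochberg adjustment over 14178 genes and a threshold of 0.05, 5 of the 6 genes passed, 3 higher and 2 lower, where 34.4% of all tested genes passed, 15.4% higher and 18.9% lower. Knockout and control libraries were fully separated for Slc2a3, Slc2a4 and Slc16a3, 3 of the 6, and for 35.5% of all tested genes.

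**Figure D1:**
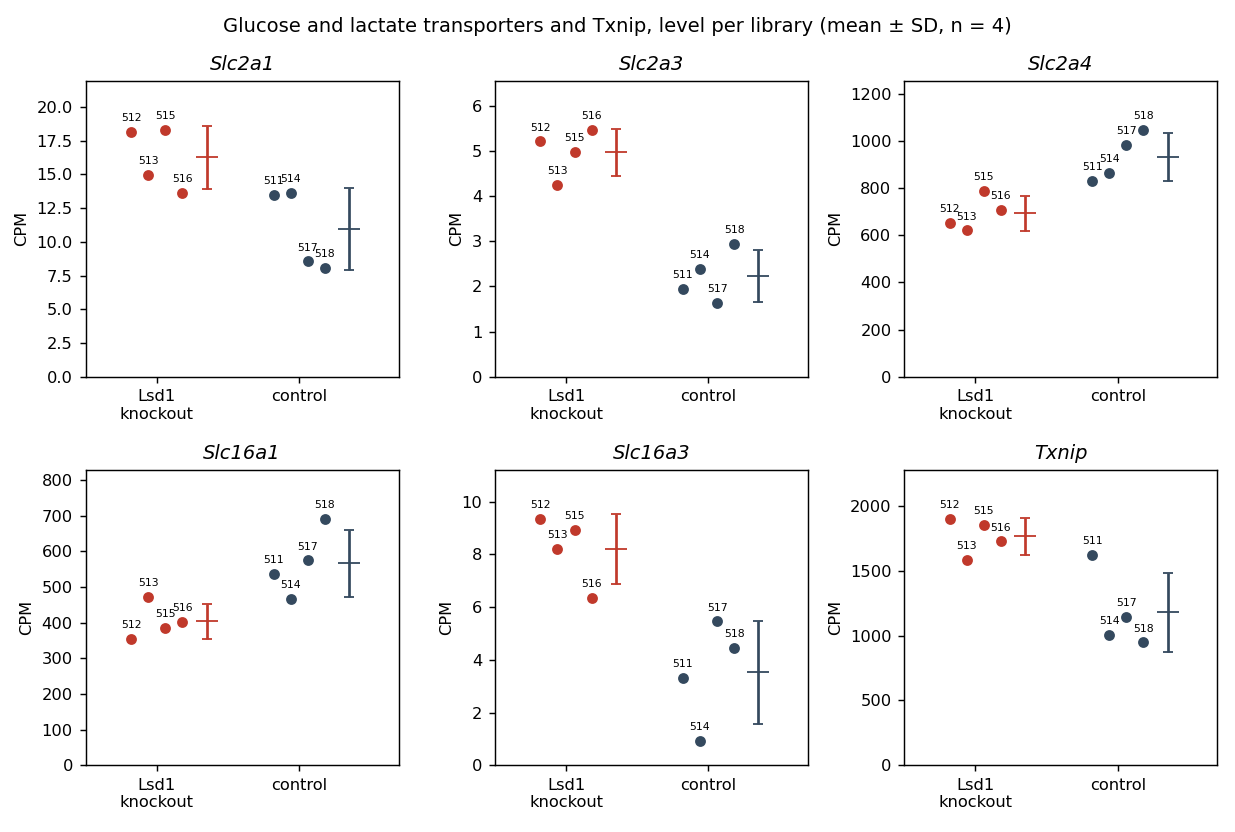
Level of each gene in CPM (y axis, from 0) in every library, with Lsd1 knockouts on the left (red) and controls on the right (dark blue); numbers are the replicates, and bars show the mean ± SD (n = 4). Slc2a3, Slc2a4 and Slc16a3 show no overlap between groups, while knockout 513 lies among the controls for Slc16a1 and control 511 among the knockouts for Txnip.

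Slc2a4, the insulin-responsive glucose transporter (chromosome 11, 69942286 to 69948190, minus strand, mm10), was at 655, 621, 787 and 710 CPM in knockouts 512, 513, 515 and 516, against 830, 867, 985 and 1046 CPM in controls 511, 514, 517 and 518. All knockout libraries lay below all control libraries, and knockout 515 came closest to the controls. The difference was -0.43 on the log2 scale (SE 0.105; edgeR adjusted p = 0.0136). Its call held without each library in turn and ended with library sizes alone as the scaling (log2 fold change -0.23, edgeR adjusted p = 0.132), a scaling under which the median gene shifted upward by 0.198 on the log2 scale.

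Slc2a3, the high-affinity glucose transporter (chromosome 6, 122727809 to 122742745, minus strand), was at 5.21, 4.25, 4.97 and 5.46 CPM in the knockouts, against 1.95, 2.39, 1.63 and 2.94 CPM in the controls, in the same order of replicates. The lowest knockout lay above the highest control, although these levels rest on only 113 to 146 counts in knockouts and 37 to 78 counts in controls. A log2 fold change of 1.15, with SE 0.198, gave an edgeR adjusted p of 0.0028, the smallest p among the 6 genes. It was the only gene of the 6 to pass in all 18 alternatives, with log2 fold changes of 1.03 to 1.35. The summed Schwann cell and nerve markers were at 411 to 475 CPM in knockouts and 285 to 381 CPM in controls. Of their 8 tested genes 1 was called higher and 0 lower, where 15.4% and 18.9% of all tested genes were. All 10 fibroblast markers and all 6 tested erythroid markers had estimates above 0 (medians 0.41 and 0.48), with 1 and 0 called by edgeR; of the erythroid markers 2 had an unadjusted p under 0.05, and DESeq2 and limma-voom each called 1. The part of these cell types in the level of Slc2a3 was not tested.

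Slc2a1, the widespread basal glucose transporter (chromosome 4, 119108745 to 119137329, plus strand), was at 18.1, 15.0, 18.3 and 13.6 CPM in the knockouts and 13.5, 13.6, 8.54 and 8.07 CPM in the controls. Controls split between replicates 511 and 514, which lay at about the level of knockout 516, and replicates 517 and 518, which lay well below all knockouts. The log2 fold change was 0.57 (SE 0.198), and the edgeR adjusted p of 0.0513 missed the threshold. The authors' deposited table gave a fold of 1.47 and an FDR of 0.0508. Slc2a1 passed with the other scalings (edgeR adjusted p = 0.0447 with relative log expression factors, 0.0301 with upper quartile factors and 0.0129 with library sizes alone), by DESeq2 (adjusted p = 0.0155), and without control 511 (edgeR adjusted p = 0.035) or control 514 (0.0311). With the macrophage markers, whose levels are given with Slc16a3, as a covariate it also passed, at a log2 fold change of 0.97 (edgeR adjusted p = 0.0446), and with the muscle markers it did not, at 0.79 (0.0665).

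Slc16a1, the main lactate and pyruvate transporter here (chromosome 3, 104638668 to 104658462, plus strand), was at 354, 472, 385 and 401 CPM in the knockouts and 537, 466, 574 and 690 CPM in the controls. The groups overlapped by a small margin, with knockout 513 just above control 514. Slc16a1 differed by -0.49 on the log2 scale, with SE 0.131 and an edgeR adjusted p of 0.0195. Its call ended without knockout 515 (edgeR adjusted p = 0.0542) and with library sizes alone (log2 fold change -0.29, edgeR adjusted p = 0.141). With the macrophage markers as a covariate its estimate was -0.67 (edgeR adjusted p = 0.0525), and with the muscle markers it was -0.69 (0.0145).

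Slc16a3, the lactate exporter of glycolytic cells (chromosome 11, 120949067 to 120959000, plus strand), was at 9.34, 8.20, 8.92 and 6.36 CPM in the knockouts and 3.31, 0.918, 5.46 and 4.45 CPM in the controls. Groups did not overlap, but the controls spread widely, and control 514 held only 23 counts of the gene. An estimate of 1.22 on the log2 scale, with SE 0.41, had an edgeR adjusted p of 0.0463, close to the threshold. The call ended without knockout 512, 513, 515 or 516 (edgeR adjusted p = 0.0959, 0.0914, 0.0986 and 0.0661), without control 511 or 518 (0.0881 and 0.0549), and when the 3 rows of the gene, which share most of their reads, were summed (0.0517). It held without control 514, at a log2 fold change of 0.90 (edgeR adjusted p = 0.0135), and without control 517, at 1.50 (edgeR adjusted p = 0.0336).

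The muscle markers and Slc16a3 shared part of their order across libraries. Knockout 512 was highest in both (17994 CPM of muscle markers), knockout 516 was lowest of the knockouts in both (8115 CPM), and control 514 was lowest of all libraries in both (427 CPM). Other libraries did not follow that order. Control 517 had the most Slc16a3 of the controls with 3985 CPM of muscle markers, against 4880 CPM in control 511 and 6926 CPM in control 518. Knockout 515 had more Slc16a3 than knockout 513 with 10248 CPM of muscle markers, against 11905 CPM. With the mean level of the muscle markers as a covariate the log2 fold change of Slc16a3 was 0.24 (edgeR adjusted p = 0.656), and with that of the macrophage markers it was 0.56 (0.496). Of the 20 muscle genes, all measured and none at 0, all 20 had estimates above 0, with a median log2 fold change of 1.56. Of these 3 were called higher by edgeR, 7 were called by DESeq2 and 20 by limma-voom with sample weights. Over all 14178 tested genes, edgeR called 15.4% higher, a share near that of the muscle genes. DESeq2 called 5386 of all tested genes in either direction and limma-voom 5311. Of 13 tested macrophage markers 4 were higher and 0 lower, where 15.4% of all tested genes were higher and 18.9% lower. The macrophage markers had a summed level of 229 to 347 CPM in knockouts and 128 to 240 CPM in controls. Clec4f, a marker of liver macrophages, was at 0. Adgre1, present under the symbol Emr1, was counted here but was not part of the macrophage covariate. Slc2a3 kept its call with either covariate (log2 fold changes 1.14 and 1.26, edgeR adjusted p = 0.0228 and 0.038). So did Slc2a4, which muscle also expresses (-0.48 and -0.56, edgeR adjusted p = 0.0419 and 0.0477). The muscle covariate (mean centred log2 CPM of the markers) was 0.576 to 1.80 in knockouts and -3.85 to 0.346 in controls. The macrophage covariate was 0.0376 to 0.656 in knockouts and -0.825 to 0.0408 in controls. Both largely follow the group, so a call kept or lost with them cannot separate a cell type from the knockout.

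**Figure D2:**
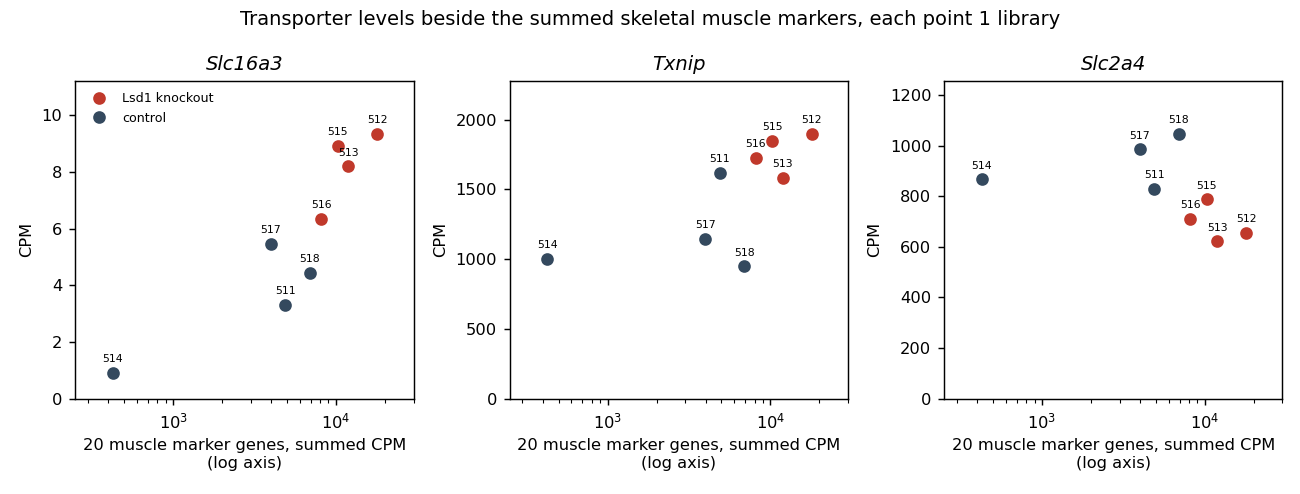
Level of Slc16a3, Txnip and Slc2a4 in CPM (y axes, from 0) against the summed CPM of 20 skeletal muscle marker genes (x axes, log scale), each point being 1 library labelled with its replicate (red, Lsd1 knockout; dark blue, control). Slc16a3 is lowest in control 514 and highest in knockout 512, as the muscle markers are, whereas Slc2a4 is lower in all knockouts, which hold more of these markers.

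Txnip, the arrestin-like inhibitor of glucose uptake (chromosome 3, 96557957 to 96561857, plus strand), was at 1898, 1582, 1851 and 1725 CPM in the knockouts and 1619, 1004, 1144 and 948 CPM in the controls. Control 511 lay above knockout 513, and the other controls lay below all knockouts. Txnip differed by 0.58 on the log2 scale, with SE 0.163 and an edgeR adjusted p of 0.0231. Its call ended without knockout 512, 515 or 516 (edgeR adjusted p = 0.0561, 0.0592 and 0.0506) and without control 514 or 517 (0.0513 and 0.0542), whereas without control 511 the log2 fold change was 0.77 (0.00151). With the muscle or macrophage markers as a covariate it was 0.43 (edgeR adjusted p = 0.191) or 0.47 (0.239).

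The noncoding gene Gm15441 lies opposite Txnip, and the files count reads without strand. It covers 19.6% of the exon bases of Txnip, and Txnip covers 36.2% of its own, by GENCODE M21 on the same assembly. Gm15441 was at 345, 299, 335 and 314 CPM in the knockouts and 305, 189, 211 and 173 CPM in the controls, with the libraries in the same order as for Txnip. Its log2 fold change was 0.56, at an edgeR adjusted p of 0.0274 (SE 0.163). Reads of the pair cannot be told apart where their exons overlap. Slc2a1 shared 3.73% of its exon bases with Gm12868 on the opposite strand, and the exons of the other 4 genes overlapped no other gene.

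Per kilobase of transcript, the 6 genes spanned a wide range of levels and kept the same order in both groups. In knockouts Txnip was at 634 ± 50.8, Slc2a4 at 248 ± 25.9, Slc16a1 at 91.4 ± 11.3, Slc2a1 at 6.37 ± 0.906, Slc16a3 at 3.32 ± 0.535 and Slc2a3 at 1.26 ± 0.133 CPM per kilobase (SD, n = 4). No neighbours in that order overlapped between knockout libraries. In controls the levels were 423 ± 110 for Txnip, 333 ± 36.0 for Slc2a4, 128 ± 21.2 for Slc16a1, 4.29 ± 1.19 for Slc2a1, 1.43 ± 0.791 for Slc16a3 and 0.566 ± 0.144 CPM per kilobase for Slc2a3 (SD, n = 4). Among control libraries the range of Txnip overlapped with that of Slc2a4, and the range of Slc16a3 with that of Slc2a3. Within control libraries Txnip lay above Slc2a4 except in control 518 (340 against 374 CPM per kilobase). Slc16a3 lay above Slc2a3 except in control 514 (0.372 against 0.608 CPM per kilobase). The genes varied less among knockouts (coefficient of variation 8.02% to 16.1%) than among controls (10.8% to 55.2%), each gene having the lower value in knockouts. This difference in spread was not tested.

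**Figure D3:**
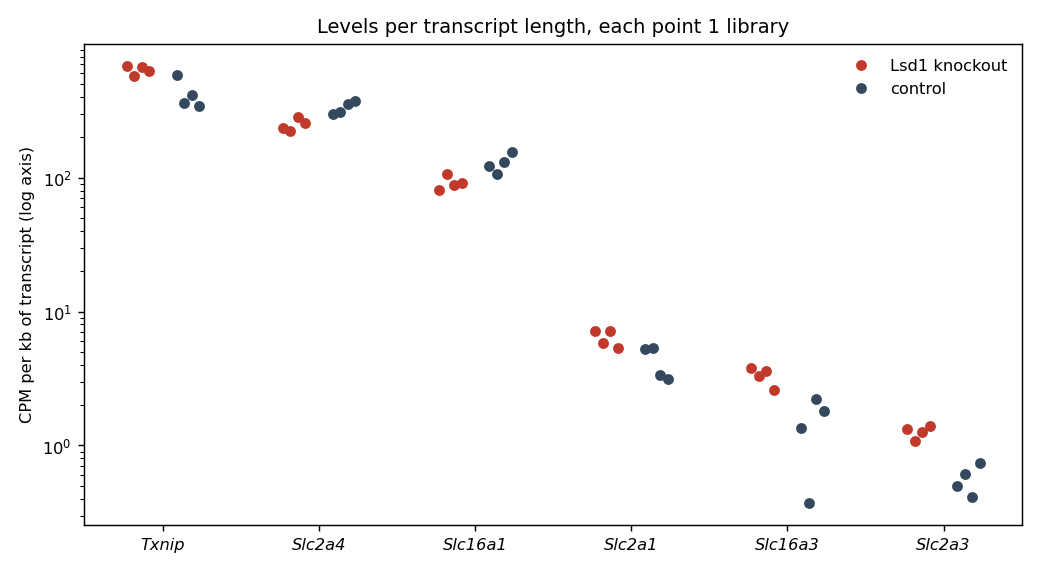
Level in CPM per kilobase of transcript (y axis, log scale) of the 6 genes, each point being 1 library, with Lsd1 knockouts (red) left of controls (dark blue). The order from Txnip (634 in knockouts, 423 in controls) down to Slc2a3 (1.26 and 0.566) is the same in both groups.

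Ratios between partner genes within a library do not depend on how libraries are scaled, and 5 such ratios are given as a description. The pairs were chosen with the differences of their genes known, so their direction is fixed by that choice and no test is given. Slc16a3 was at 4.72%, 3.10%, 4.15% and 2.84% of the per-length level of Slc16a1 in knockouts 512, 513, 515 and 516, against 1.10%, 0.352%, 1.70% and 1.15% in controls 511, 514, 517 and 518. The lowest knockout lay above the highest control, and the mean log2 ratio was -4.79 ± 0.345 in knockouts and -6.74 ± 0.98 in controls, a 3.88-fold difference. Slc2a1 was at 3.04%, 2.65%, 2.55% and 2.11% of the level of Slc2a4 in knockouts and 1.78%, 1.73%, 0.954% and 0.846% in controls, a 2.04-fold difference with no overlap. Slc2a3 was at 0.566%, 0.486%, 0.449% and 0.545% of Slc2a4 in knockouts and 0.167%, 0.195%, 0.118% and 0.198% in controls, a 3.07-fold difference with no overlap.

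Ratios were also taken for enzymes next to the transporters. Hk1 over Hk2, the hexokinases that trap glucose in the cell, had a mean log2 ratio per length of -0.74 ± 0.17 in knockouts and -3.80 ± 0.775 in controls, an 8.33-fold difference. Ldhb over Ldha, the subunits of lactate dehydrogenase, had -0.35 ± 0.0573 in knockouts and -1.02 ± 0.249 in controls, a 1.60-fold difference. Ldhb itself was at 554 CPM in knockouts and 549 CPM in controls (log2 fold change 0.01, edgeR adjusted p = 0.931). In each of the 5 pairs all knockouts lay above all controls. Leaving out control 514 changed the Slc16a3 over Slc16a1 difference most, to 1.49 on the log2 scale, against 1.95 with all libraries.

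**Figure D4:**
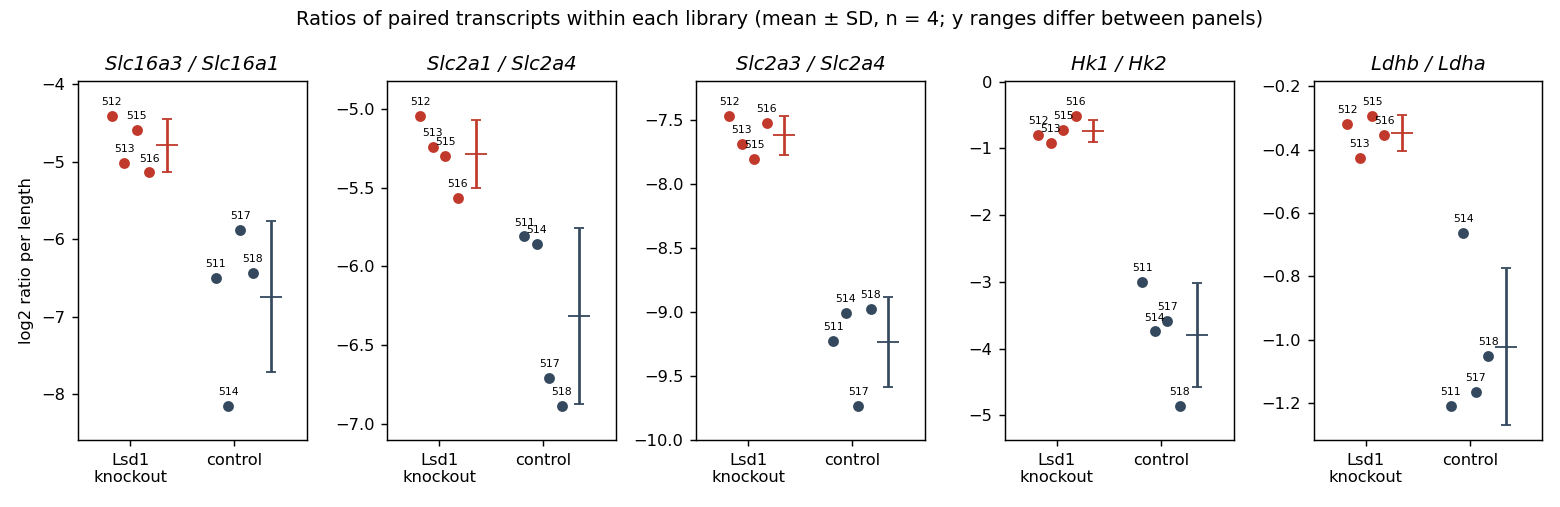
Log2 ratio of per-length levels within each library (y axes, whose ranges differ between panels) for 5 pairs of genes, with Lsd1 knockouts on the left (red) and controls on the right (dark blue); numbers are replicates and bars the mean ± SD (n = 4). All 4 knockouts lie above all 4 controls in every panel.

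Among the other members of both families, Slc2a5 and Slc2a12 passed the test. Of 9 other Slc2a genes 7 were tested, 1 higher and 1 lower, where 34.4% of all tested genes passed, with a median log2 fold change of 0.11, against -0.01 over all tested genes. Slc2a5, the fructose transporter, fell by 0.85 on the log2 scale (SE 0.218, edgeR adjusted p = 0.0162), to 49.0 ± 8.61 CPM in knockouts, against 88.4 ± 27.8 CPM in controls. Slc2a12, a further insulin-sensitive transporter, rose by 0.60 (SE 0.176, edgeR adjusted p = 0.0278), to 11.0 ± 0.213 CPM in knockouts, against 7.26 ± 1.96 CPM in controls. The call of Slc2a12 ended without any one of knockouts 512, 513, 515 and 516 (edgeR adjusted p = 0.0598, 0.0629, 0.0602 and 0.0601) or of controls 511 and 514 (0.059 and 0.0567). Of 12 other Slc16a genes 10 were tested by edgeR and 0 passed (median 0.17), with 1 at an unadjusted p under 0.05, 0 called by DESeq2 and 1 by limma-voom, and the smallest adjusted p was that of Slc16a6, a ketone and taurine carrier (log2 fold change 0.42, edgeR adjusted p = 0.0788). Sodium-coupled carriers were scarce: 2 of 9 were tested and 0 passed by edgeR, DESeq2 or limma-voom, with 0 at an unadjusted p under 0.05, and Slc5a4a, Slc5a8 and Slc5a12 were at 0 in all libraries.

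Of the chaperones and the lactate receptor 1 of 3 passed, and of the vesicle traffic genes 5 of 18, against 34.4% of all tested genes. Bsg (basigin), the chaperone of Slc16a1 and Slc16a3, fell by 0.30 (SE 0.0849, edgeR adjusted p = 0.0256), to 363 ± 15.3 CPM in knockouts, against 446 ± 45.8 CPM in controls. Its call ended with upper quartile factors (0.109), with library sizes alone (0.426), and without knockout 513, 515 or 516 (0.0696, 0.0728 and 0.0537) or control 517 or 518 (0.0621 and 0.0798). Bsg was also not called in the authors' deposited table (FDR 0.104). Hcar1, the lactate receptor of fat cells, had a log2 fold change of -0.25 and no call. Among 18 genes of Slc2a4 vesicle traffic, 2 were higher and 3 lower (median -0.13). Vamp2, a fusion protein of Slc2a4 vesicles, rose by 0.54 (SE 0.109, edgeR adjusted p = 0.00603) and Trip10, an adaptor of insulin signalling, rose by 0.45 (0.0166). Rab8a, Cltc (clathrin heavy chain) and Exoc7, an exocyst subunit, fell by 0.20 to 0.24, and the calls of Rab8a and Cltc ended with library sizes alone (edgeR adjusted p = 0.675 and 0.649) or upper quartile factors (0.128 and 0.127), that of Cltc also without knockout 515 or 516 (0.0577 and 0.0571). Neither Rab8a nor Cltc was called in the authors' deposited table (FDR 0.156 and 0.176). The call of Exoc7 was not followed in these settings or with the marker covariates. Tbc1d4, the insulin-regulated brake on Slc2a4 release, had a log2 fold change of -0.57 without a call (0.0592), and is named because of that value, outside the rule for named genes.

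Partners and regulators of Txnip were lower or did not pass, apart from a pair of related arrestins. Mlxipl, the glucose-sensing activator of Txnip, fell by 0.65 (SE 0.164, edgeR adjusted p = 0.0155), to 555 ± 52.9 CPM in knockouts, against 869 ± 219 CPM in controls, a call that ended with library sizes alone (0.0709). Its dimer partner Mlx fell by 0.85 (SE 0.149, edgeR adjusted p = 0.00302), with 19.4% of its exon bases opposite Psmc3ip. Mlxip, the second activator, had a log2 fold change of 0.09 and no call. Arrdc4, the closest relative of Txnip and likewise a glucose-induced gene, was at 19.1 ± 2.96 CPM in knockouts and 20.5 ± 13.4 CPM in controls and was not called (log2 fold change -0.10, SE 0.36), and is likewise named outside the rule. Txn2, the mitochondrial thioredoxin, fell by 0.46 (edgeR adjusted p = 0.00153), and Txn1, the cytosolic thioredoxin, had -0.10 and no call. Arrdc1 and Arrdc2 rose by 0.42 and 0.38 (edgeR adjusted p = 0.0214 and 0.0434). Their calls ended without knockout 515 (0.051 and 0.089) or 516 (0.0595 and 0.111), that of Arrdc1 also without knockout 513 (0.0669), and that of Arrdc2 also without knockout 512 (0.104) or control 511, 517 or 518 (0.0672, 0.0962 and 0.0664). Neither Arrdc1 nor Arrdc2 was called in the authors' deposited table (FDR 0.0964 and 0.146). Arrdc2 was also not called by limma-voom (adjusted p = 0.107) or without the filter (edgeR adjusted p = 0.0578).

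With the macrophage markers as a covariate the calls of Slc2a5 (edgeR adjusted p = 0.0672), Slc2a12 (0.325), Bsg (0.0626), Trip10 (0.0541), Rab8a (0.148), Cltc (0.154), Arrdc1 (0.216) and Arrdc2 (0.12) ended. With the muscle markers those of Slc2a12 (0.285), Rab8a (0.129), Cltc (0.052) and Arrdc1 (0.0527) ended. Both covariates largely follow the group, and the part of either cell type in these results was not tested.

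Steps after entry differed in both directions. Hk1 rose by 1.95 (SE 0.15, edgeR adjusted p = 0.000108) and Hk2 fell by 1.17 (SE 0.231, edgeR adjusted p = 0.00527), to 403 ± 42.8 CPM in knockouts, against 904 ± 340 CPM in controls, a call that ended with the macrophage covariate (0.0651). Of 5 tested genes of lactate and pyruvate conversion and mitochondrial entry 3 were lower and 0 higher (median -0.68). Over all tested genes 18.9% were lower and 15.4% higher. Ldha, which favours lactate formation, fell by 0.68 (edgeR adjusted p = 0.00358), Mpc2, a subunit of the mitochondrial pyruvate carrier, fell by 0.75 (SE 0.0943, edgeR adjusted p = 0.000709), and Ldhd, a D-lactate dehydrogenase, fell by 0.43. Mpc1, the partner subunit, had -0.71 and just missed the threshold (edgeR adjusted p = 0.051), with 25.0% of its exon bases overlapped by 4930506C21Rik on the other strand.

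**Figure D5:**
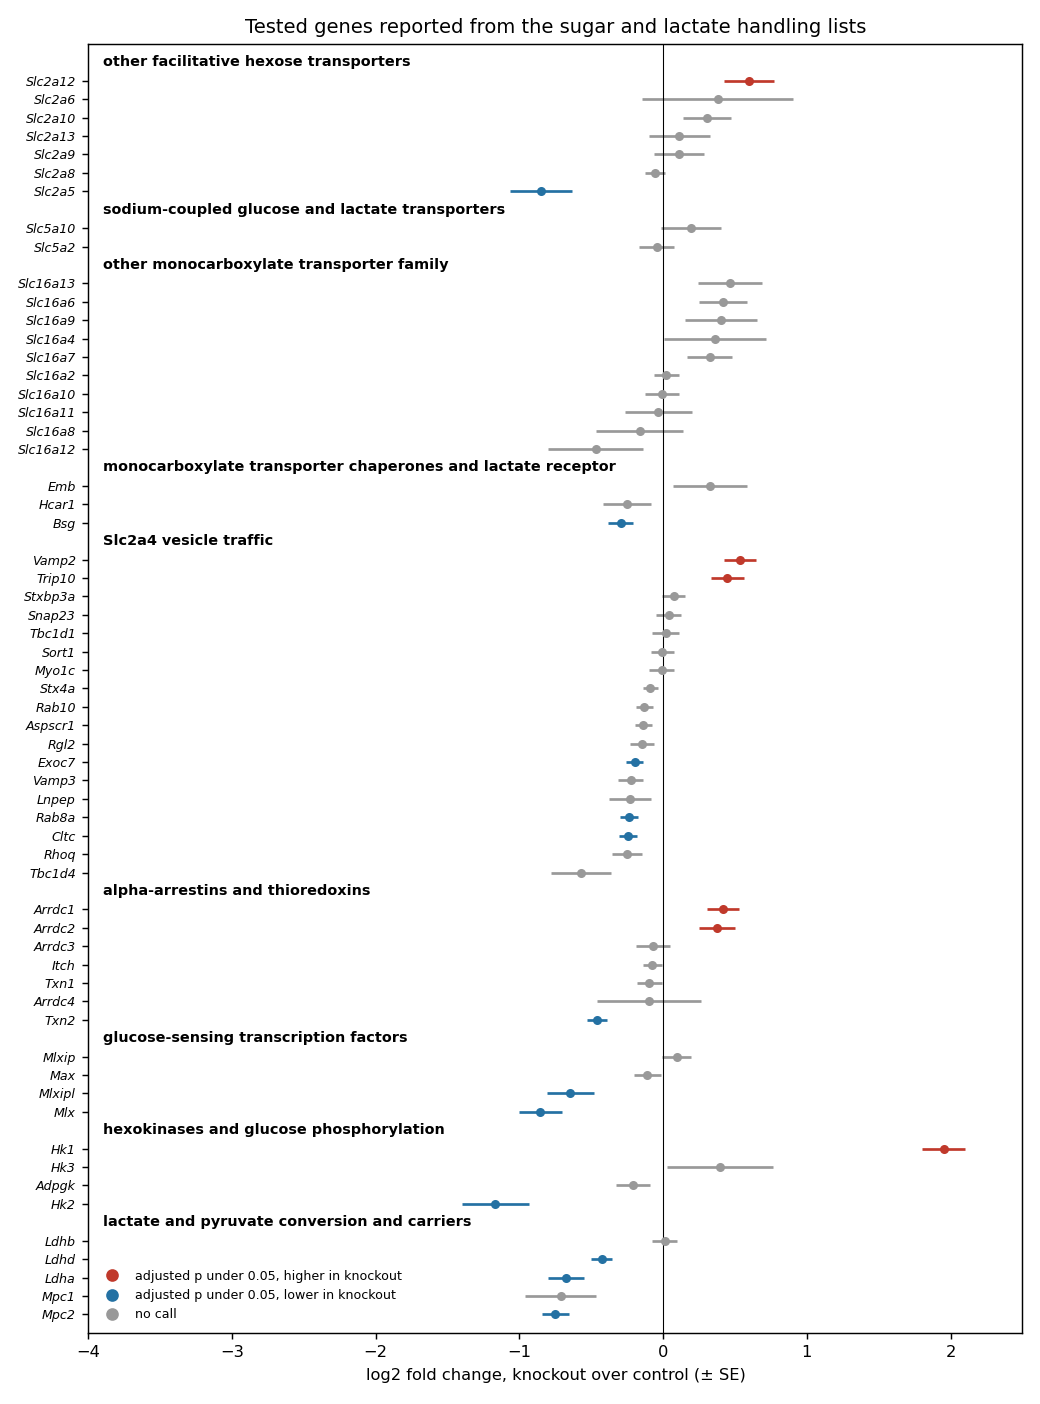
Log2 fold change, knockout over control, with its SE (x axis) for the tested genes reported from 9 lists around glucose and lactate transport (rows); red marks genes higher and blue genes lower in knockouts at an edgeR adjusted p under 0.05, grey no call. Hk1 (1.95) lies farthest to the right and Hk2 (-1.17) farthest to the left.

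The genes whose levels followed each of the 5 called genes most closely were sought among 10346 tested genes averaging 5 CPM or more. Closeness was the root mean square difference of centred log2 CPM over the 8 libraries. Gene models with Gm, LOC or Rik names were left out of these candidates, as were the transporter genes and Txnip themselves. Nearest to Slc2a4 were Hmg20b, a subunit of an Lsd1-containing corepressor complex, at 0.0521, and Ubap1, an endosomal sorting protein, at 0.0599. Slc2a3 was nearest to Slc6a8, the creatine transporter (0.139), and Cbr3, a carbonyl reductase (0.178). Slc16a1 was nearest to AU019823 (0.0948) and Top1, a DNA topoisomerase (0.0968). For Slc16a3 they were Tpm1, a tropomyosin abundant in muscle (0.229), and Plcd4, a phospholipase C (0.293). For Txnip, Ttc7 was nearest among the candidates (0.0968). Gm15441, opposite Txnip, was not a candidate, although its libraries followed the same order as those of Txnip. The call of Ttc7 ended with the macrophage or muscle markers as a covariate (edgeR adjusted p = 0.175 and 0.155), and those of AU019823 and Top1 with the macrophage markers (0.101 and 0.0556). With library sizes alone the calls of AU019823 (0.261), Top1 (0.0847), Hmg20b (0.0739) and Ubap1 (0.141) ended, and that of AU019823 also with upper quartile factors (0.0643). The calls of Tpm1 and AU019823 ended without knockout 512 (edgeR adjusted p = 0.0805 and 0.0521), 515 (0.067 and 0.0512) or 516 (0.0509 and 0.058), and that of Tpm1 also with the muscle or macrophage markers as a covariate (log2 fold changes 0.26 and 0.81, edgeR adjusted p = 0.18 and 0.373) and without knockout 513 (0.0703) or control 511 or 517 (0.0562 and 0.0625). Of the genes named here, all but Plcd4 (edgeR adjusted p = 0.0816) were called in the direction of their neighbour, and such likeness over 8 libraries mostly reflects the difference between the groups.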

How the data were processed

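The 8 libraries of brown adipose tissue (4 knockout, 4 control) were grouped by their titles. TopHat 2 was run against mm10 and testing used edgeR and DESeq 1.8.3, per the submitters' processing notes and design text. The estimated counts deposited by the authors came from HOMER's analyzeRepeats.pl on RefSeq models, unadjusted, over exons of both strands, per the file headers. They are multiples of 0.5 (36.9% not whole) and were rounded before testing. Length in bases and, in the authors' comparison table, the scaled counts (a signal), fold (ratio), log2 fold change, p-value and FDR were deposited by the authors too.

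The 829 rows without a symbol (0.0608% to 0.0824% of counts) were left out. Genes were filtered by filterByExpr (minimum count 10), scaled by TMM and tested with edgeR 4.0.16 in R 4.3.3 (quasi-likelihood, knockout against control, two-sided, Benjamini-Hochberg). SE is the log2 fold change divided by the square root of F. The test was checked on simulated data. It recovered 6% of changes of 1.25-fold, 32% of 1.5-fold, 62% of 2-fold and 96% of 4-fold. Small differences were thus often missed in that setting. A permutation test of the ratios is not reported, since the pairs were chosen with their differences known. Lists held 201 entries, of which 196 matched by symbol and 3 by synonym. Members and lists were chosen with earlier results of these data known. Named genes are the members, up to 4 per list with the smallest p, and the 2 nearest genes of each called member; Exoc7, Gm15441, Ldhb and genes said to be named outside the rule were chosen after their values were seen. Correlations of log2 CPM were 0.985 to 0.991 within knockouts and 0.963 to 0.981 within controls, and no pair agreed within sampling noise. Some items that the rule names are not reported here. Alternatives used DESeq2 1.42.0 and limma 3.58.1.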

Additional observations from a re-analysis of the deposited data

How the results depend on the processing

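No paired analysis was possible because the replicate numbers differ between the groups. The number of genes called, 4871, was 4540 to 5386 with other scalings, without the filter, with rows summed, by DESeq2 or by limma-voom with sample weights, 3427 to 4770 with a library left out, and 3731 in the authors' deposited table over the same genes. It was 3022 with the muscle markers and 1783 with the macrophage markers as a covariate, and the cause was not tested. The split of higher and lower genes depended on scaling, with 2189 higher and 2682 lower by TMM, 2915 and 1625 with upper quartile factors, and 4077 and 930 with library sizes alone; the median gene shifted by 0.103 and 0.198 with the last 2. Of the 6 transporter genes and Txnip, 5 were called, and 3 with either covariate; with a library left out the number was 2 to 5, lowest without knockout 515. No sign changed in 18 alternatives for any of the 6. The 5 within-library ratios kept their direction and non-overlap with rows summed. Slc2a1, Slc2a3 and Slc2a4 have a single row each, so summing could not change the ratios between them. The authors' scaling cancels within a library, so their scaled counts could not change any ratio beyond rounding. With a library left out the differences were 1.49 to 2.24 for Slc16a3 over Slc16a1, 0.84 to 1.20 for Slc2a1 over Slc2a4, 1.45 to 1.70 for Slc2a3 over Slc2a4, 2.71 to 3.32 for Hk1 over Hk2 and 0.61 to 0.79 for Ldhb over Ldha. For the 47 other genes that the rule picks, 724 of 846 values kept their side of the threshold, 100 lost a call, 22 gained one and 0 called genes changed sign. Depth limits Slc2a3 and Slc16a3, with 37 to 146 and 23 to 233 counts per library.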

Other observations

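Genes induced by low oxygen, a group that includes glucose transporters and Slc16a3 in other settings, showed no common direction. Of 17 tested, 2 were higher and 2 lower, with a median log2 fold change of -0.04, where 34.4% of all tested genes passed. Ndrg1 rose by 0.29 (edgeR adjusted p = 0.00708) and Adm, adrenomedullin, rose by 0.79 (0.0354), while Pdk1, a kinase that slows pyruvate oxidation, fell by 0.66 (0.00739) and Hif1a itself fell by 0.28 (0.0409). The calls of Adm and Hif1a each ended when knockout 512, 513, 515 or 516, control 511 or control 517 was left out (edgeR adjusted p = 0.0538 to 0.0876 for Adm and 0.0575 to 0.105 for Hif1a), and that of Adm also without control 518 (0.0665). With the macrophage markers as a covariate none of these 4 genes was called (edgeR adjusted p = 0.071 for Ndrg1, 0.0564 for Adm, 0.162 for Pdk1 and 0.144 for Hif1a). With the muscle markers Pdk1 and Hif1a were not called (0.0673 and 0.121), whereas Ndrg1 and Adm were (0.0476 and 0.00409), Adm at a log2 fold change of 1.42. Hif1a was not called with upper quartile factors or library sizes alone (0.171 and 0.493). Neither Ndrg1 nor Hif1a was called in the authors' deposited table (FDR 0.127 and 0.124).

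As a share of the summed per-length level of 12 Slc2a genes, Slc2a4 made up 83.5% to 85.5% in knockouts and 81.6% to 88.5% in controls, ranges that overlap. Slc2a1 made up 1.78% to 2.54% in knockouts and 0.736% to 1.49% in controls. Slc2a5, the fructose transporter, ranged from 4.52% to 6.01% in knockouts and from 5.51% to 11.2% in controls, with control 511 highest. Among 14 Slc16a genes, Slc16a1 made up 61.3% to 68.4% in knockouts and 69.0% to 79.1% in controls, without overlap, and Slc16a3 1.91% to 2.89% in knockouts and 0.243% to 1.30% in controls. Such shares were not tested.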
